A study of Mus musculus with 9 samples.

Results

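The Sprouty and Spred genes encode feedback inhibitors of the RAS/ERK pathway, and their RNA was measured here in the hippocampus of mice with an overactive BRAF kinase. The members were taken by gene symbol, namely Spry1, Spry2, Spry3 and Spry4 of the Sprouty family and Spred1, Spred2 and Spred3 of the Spred family. Of these 7 symbols, 6 were among the 18275 genes of the deposited table, and Spry3 was not analysed here. All 6 passed the filter on low values, a mean of at least 10 over the libraries, as did 16196 genes in all.

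The study compared 4 Nestin;BrafKE/+ mice with 5 Braf+/+ mice, all adult males on a C57BL/6N background, with 1 hippocampal mRNA library per animal. The mutants carried 1 Braf allele with the K499E substitution, which a Nestin-Cre transgene switched on in neural stem cells, so that neurons, astrocytes and oligodendrocytes descended from them should carry it while microglia should not. The controls were littermates labelled WT, and whether they carried the Cre transgene was not given in the sources used here. By their names in the labels the libraries fell into 3 series, with Nestin;BrafKE/+ replicate 1 and Braf+/+ replicates 1, 2 and 3 in series A, Nestin;BrafKE/+ replicates 2 and 3 and Braf+/+ replicate 4 in series B, and Nestin;BrafKE/+ replicate 4 and Braf+/+ replicate 5 in series C. The labels do not say what a series stands for.

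When a growth factor binds a receptor tyrosine kinase at the cell surface, RAS is loaded with GTP and recruits RAF kinases such as BRAF, which activate MEK and then ERK. ERK in turn switches on transcription of its own inhibitors. Sprouty proteins are phosphorylated on a conserved tyrosine after receptor activation and interfere with signalling between the receptor and RAF, in part through GRB2 and the ubiquitin ligase CBL. Spred proteins carry an EVH1 domain and bring neurofibromin, the RAS GTPase activating protein encoded by Nf1, to the membrane, and loss of SPRED1 in people causes Legius syndrome, a RASopathy. In the nervous system both families are known as brakes on signalling from receptors for fibroblast growth factors and neurotrophins. An activated BRAF acts below RAS, the step at which Spred proteins work.

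Library totals were nearly equal, from 19551312 to 20091532 normalised counts, which is how the values were scaled and not a sequencing depth. The depth is unknown, because the whole numbers behind the values are not reads. Precision below rests on the spread between animals that was left after the authors' batch adjustment. Braf, the targeted gene, had 2264 ± 144 (SD, n = 4) normalised counts in mutants and 2786 ± 153 (SD, n = 5) in controls (log2 fold change -0.30, SE 0.07, adjusted p = 0.0378), and a gene-level value does not show which allele was expressed. Log2 fold changes and adjusted p-values here and below come from limma on log2(value + 1) with genotype and series as terms, adjusted over all 16196 genes. Of the 10 lists of cell type markers used to check the tissue, 9 had every gene tested and blood had 5 of 6, and in controls Slc1a2 of astrocytes had 65668 ± 4360 (SD, n = 5) normalised counts and Gad1 of inhibitory neurons 6001 ± 201 (SD, n = 5).

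All 6 members had a higher mean in Nestin;BrafKE/+, and 4 of them, Spry4, Spred3, Spry2 and Spred2, had an adjusted p under 0.05, all upward. Among all genes tested 2.88% of genes passed in either direction and 1.52% upward. The values of the genotypes did not overlap for the same 4 members, against 7.62% of all genes tested for which every mutant library lay above every control. The median log2 fold change of the 6 members was 0.39, and that of all genes tested was 0.00033. By log2 fold change 0.87% of the genes tested ranked above Spry4, 2.08% above Spred3, 4.14% above Spry2 and 8.96% above Spred2. Of the members that did not pass, 15.5% of genes ranked above Spred1 and 15.8% above Spry1.

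**Figure D1:**
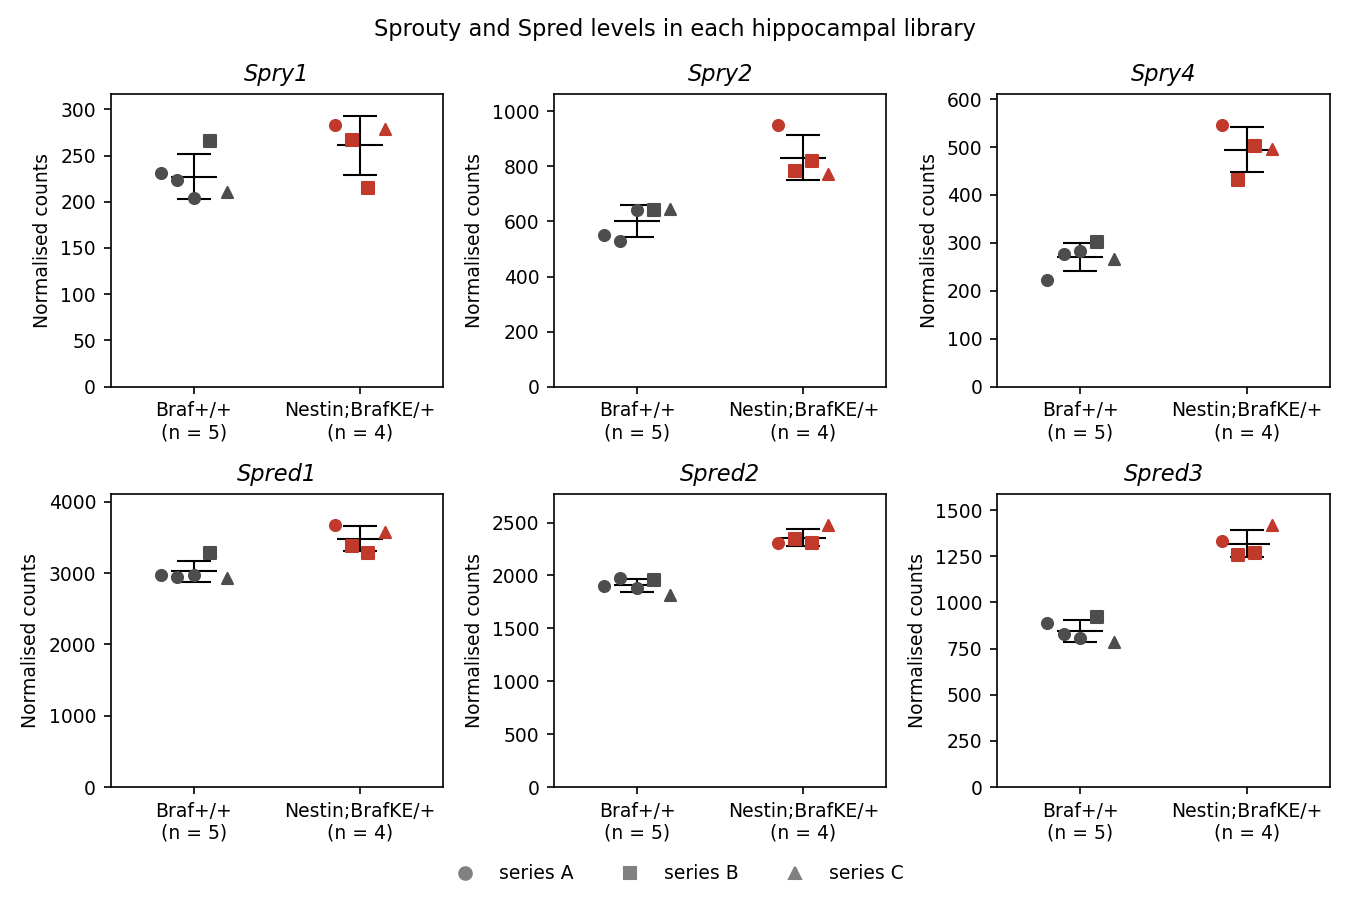
Normalised counts of each Sprouty and Spred gene in every hippocampal library, 1 panel per gene with the y axis from 0, Braf+/+ (n = 5) in grey and Nestin;BrafKE/+ (n = 4) in red, bars at the mean ± SD and symbols for the series of library names. The 4 mutant libraries sit above all 5 controls for Spry2, Spry4, Spred2 and Spred3, and the groups overlap for Spry1 and Spred1.

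Spry4 showed the highest fold change of the family. Spry4 (ENSMUSG00000024427) lies on the minus strand of chromosome 18, 38719300 to 38736025 in GRCm39, and encodes a Sprouty protein that is widely used as a readout of receptor signalling. In Nestin;BrafKE/+ replicates 1 to 4 it had 546, 432, 501 and 497 normalised counts. In Braf+/+ replicates 1 to 5 it had 222, 277, 284, 301 and 267. The lowest mutant library, replicate 2, was well above the highest control, replicate 4, which belongs to the same series. The mean was 270 ± 29.9 (SD, n = 5) in controls and 494 ± 46.9 (SD, n = 4) in mutants, so it rose with a log2 fold change of 0.87 (SE 0.12, 95% interval 0.61 to 1.13, adjusted p = 0.00483), or 1.83-fold. Within series A, B and C the difference on the log2 scale was 1.07, 0.63 and 0.89. Leaving out Nestin;BrafKE/+ replicate 1, the mutant with the highest Spry4 value, gave a log2 fold change of 0.74 with an adjusted p of 0.0683, and Spry4 passed in the other 8 such fits.

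Spry2 rose less than Spry4. Spry2 (ENSMUSG00000022114, minus strand of chromosome 14, 106128766 to 106136446) encodes the Sprouty protein best known for binding CBL, and was the most abundant of the 3 Sprouty genes. Its values in Nestin;BrafKE/+ replicates 1 to 4 were 951, 785, 819.6 and 773 normalised counts. Its values in Braf+/+ replicates 1 to 5 were 550.5, 528, 643, 641 and 644. Nestin;BrafKE/+ replicate 1 stood highest, the controls of series A included both the lowest values and 1 of the highest, and the groups did not overlap. The mean was 601 ± 57.1 (SD, n = 5) in controls and 832 ± 81.6 (SD, n = 4) in mutants, so it rose with a log2 fold change of 0.47 (SE 0.10, 95% interval 0.25 to 0.69, adjusted p = 0.0346), or 1.38-fold. Within series A, B and C it was higher in mutants by 0.73, 0.32 and 0.26. Of the 4 members that passed, Spry2 had the highest adjusted p, and its call was lost in 4 of 9 fits with a library left out, with adjusted p-values of 0.212 without Nestin;BrafKE/+ replicate 1 (log2 fold change 0.30), 0.0844 without replicate 3, 0.0630 without Braf+/+ replicate 1 and 0.0909 without Braf+/+ replicate 4.

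Spry1 did not pass the test. Spry1 (ENSMUSG00000037211, plus strand of chromosome 3, 37693897 to 37698755) encodes a Sprouty protein best known for restraining the RET receptor in kidney development. It had 283, 267, 215 and 279 normalised counts in Nestin;BrafKE/+ replicates 1 to 4. In Braf+/+ replicates 1 to 5 it had 232, 223, 204, 266 and 210.2. The groups overlapped, since Nestin;BrafKE/+ replicate 3 lay below 3 of the 5 controls. The log2 fold change was 0.20 (SE 0.13, 95% interval -0.09 to 0.48, adjusted p = 0.458), an interval from a 0.94-fold to a 1.40-fold level. Within series it was 0.37 in A and 0.41 in C, but -0.15 in B. Single libraries moved it, to 0.09 without Nestin;BrafKE/+ replicate 1, 0.12 without Nestin;BrafKE/+ replicate 4 or Braf+/+ replicate 5, and 0.38 without Braf+/+ replicate 4, with adjusted p-values from 0.246 to 0.840 over the 9 fits.

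Among the Spred genes, Spred3 changed most. Spred3 (ENSMUSG00000037239, minus strand of chromosome 7, 28857984 to 28869836) encodes a Spred protein that lacks a functional KIT-binding domain. Its values in Nestin;BrafKE/+ replicates 1 to 4 were 1333, 1258, 1266 and 1417 normalised counts. Its values in Braf+/+ replicates 1 to 5 were 888, 828, 805, 919.9 and 785. The gap between the lowest mutant and the highest control was wider than the spread within either genotype. The mean was 845 ± 57.0 (SD, n = 5) in controls and 1318 ± 73.8 (SD, n = 4) in mutants, so it rose with a log2 fold change of 0.64 (SE 0.07, 95% interval 0.48 to 0.80, adjusted p = 0.00261), or 1.56-fold. By p-value Spred3 stood at rank 19 of all genes tested, ahead of Spry4 at rank 48, Spred2 at 138 and Spry2 at 312. The difference was 0.67, 0.46 and 0.85 in series A, B and C. Spred3 was the member that passed in all 9 fits with a library left out, with adjusted p-values from 0.00548 to 0.0457.

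Spred2 rose by a smaller step, with little spread between animals. Spred2 (ENSMUSG00000045671, plus strand of chromosome 11, 19874355 to 19974442) encodes a broadly expressed Spred protein. It had 2303, 2342, 2304 and 2473 normalised counts in Nestin;BrafKE/+ replicates 1 to 4. In Braf+/+ replicates 1 to 5 it had 1901, 1973, 1886, 1960.4 and 1818. The groups did not overlap, and the coefficient of variation was 3.41% in mutants and 3.29% in controls, the lowest of the family in each genotype. The mean was 1908 ± 62.7 (SD, n = 5) in controls and 2355 ± 80.2 (SD, n = 4) in mutants, so it rose with a log2 fold change of 0.30 (SE 0.05, 95% interval 0.19 to 0.42, adjusted p = 0.0159), or 1.23-fold. Within series A, B and C the difference was 0.26, 0.24 and 0.44. Its call was lost without Nestin;BrafKE/+ replicate 1 (adjusted p = 0.0808), without Nestin;BrafKE/+ replicate 4 (0.0510) and without Braf+/+ replicate 4 (0.0525).

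Spred1 was the most abundant member and did not pass. Spred1 (ENSMUSG00000027351, plus strand of chromosome 2, 116951524 to 117018277) encodes the Spred protein whose loss causes Legius syndrome. In Nestin;BrafKE/+ replicates 1 to 4 it had 3667, 3386, 3282 and 3579 normalised counts. In Braf+/+ replicates 1 to 5 it had 2977, 2946, 2975, 3286 and 2935. Of the controls, 4 lay close together, and replicate 4 stood apart from them at about the level of Nestin;BrafKE/+ replicate 3. The mean was 3024 ± 148 (SD, n = 5) in controls and 3479 ± 176 (SD, n = 4) in mutants, with a log2 fold change of 0.20 (SE 0.06, 95% interval 0.07 to 0.33, adjusted p = 0.10). The difference was 0.31 in series A and 0.29 in C, and 0.02 in B, which holds both of those overlapping libraries. Leaving out Braf+/+ replicate 4 gave a log2 fold change of 0.30 and an adjusted p of 0.0423, and leaving out Nestin;BrafKE/+ replicate 1 gave 0.13 and 0.396.

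**Figure D2:**
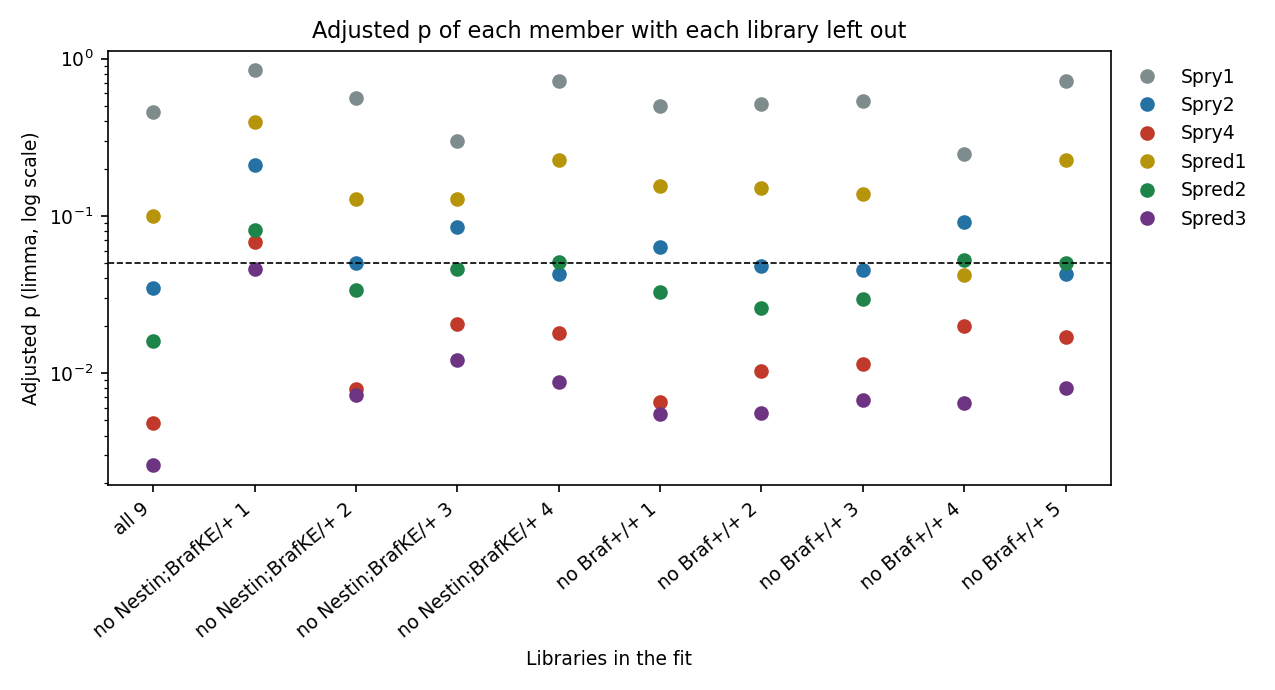
Adjusted p from limma (log scale) for each member with all 9 libraries and with each library left out in turn, with a dashed line at 0.05. Spred3 stays under the line throughout, Spry4 crosses it only without Nestin;BrafKE/+ replicate 1, and Spry1 stays above it throughout.

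Single values were also tested by two-sided exact permutation of the genotype labels on the log2 scale. Over all ways of assigning 4 of the 9 libraries to the mutants, the exact p was 0.00794 for Spry2, Spry4, Spred2 and Spred3, which is the smallest this design can give. It was 0.0238 for Spred1 and 0.111 for Spry1. Over the 24 assignments that keep the number of mutants in each series, the exact p was 0.0417 for the same 4 genes, again the smallest possible. For Spred1 it was 0.0833 and for Spry1 0.208. The 6 p-values of each scheme were not adjusted. Both schemes take the libraries as exchangeable. The values were batch-adjusted by the authors, and deviations of the 2 libraries of series C from their group means correlated at -0.997 across genes. The permutation p-values may therefore not be exact.

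**Figure D3:**
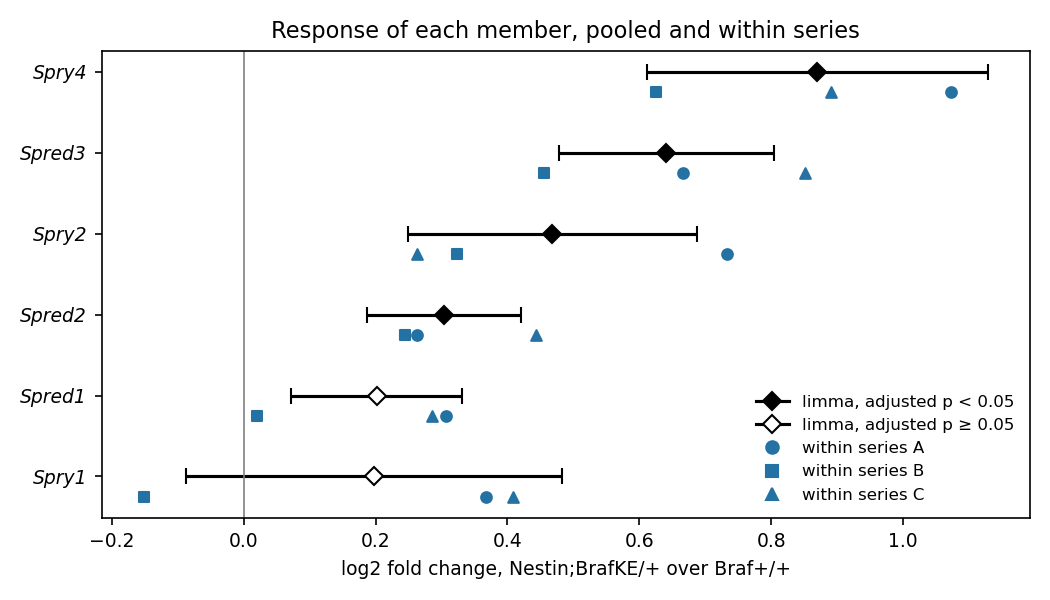
Log2 fold change of each member in Nestin;BrafKE/+ over Braf+/+, with diamonds for the limma estimate, bars for its 95% interval, filled where the adjusted p was under 0.05, and blue symbols for the difference within each series of library names. Spry4 lies highest at 0.87 and Spry1 and Spred1 lowest at 0.20, and the only within-series difference under 0 is that of Spry1 in series B.

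Members were compared with each other through the log2 ratio of a pair of them within each library, in a linear model with genotype and series. Of the 15 pairs, the 95% interval of the genotype difference excluded 0 for 7, and all 7 had Spry4 or Spred3 as the member that rose more. Spry4 rose by 0.40 more than Spry2 on the log2 scale (95% interval 0.11 to 0.69). Against Spred2 the excess of Spry4 was 0.57 (0.22 to 0.91), and against Spred1 and Spry1 it was 0.67 in each case (0.37 to 0.96 and 0.20 to 1.14). Spred3 rose by 0.34 more than Spred2 (0.19 to 0.48), by 0.44 more than Spred1 (0.31 to 0.57) and by 0.44 more than Spry1 (0.19 to 0.69). Spry4 and Spred3, the members with the highest fold changes in their families, differed from each other by 0.23, with an interval from -0.15 to 0.61. For the pair of Spred3 and Spry2 the difference was 0.17 (-0.21 to 0.56), and for Spred2 and Spred1 it was 0.10 (-0.04 to 0.25). Spred1 and Spry1 had the same estimate within 0.0041, but the interval ran from -0.24 to 0.25, so equal responses were not shown. These intervals were not adjusted for the number of pairs, and pairs that share a member are not independent.

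Levels can be set side by side only per length, and were divided here by the length of the merged exons in kilobases. These lengths came from Gencode vM39, while the authors quantified with an earlier Gencode release. The exons behind the values may therefore differ from those measured here. In Braf+/+ the order was Spred1 at 389 normalised counts per kb, Spred2 at 313, Spred3 at 128, Spry2 at 117, Spry1 at 47.6 and Spry4 at 40.9. Spred3 (119 to 139) and Spry2 (103 to 125) overlapped over the 5 controls, as did Spry1 (42.8 to 55.8) and Spry4 (33.6 to 45.7), so neither pair had an order beyond its spread. In Nestin;BrafKE/+ these neighbours separated. Spred3 stood at 199.8 per kb (191 to 215) and Spry2 at 162 (150.1 to 185). Spry4 stood at 74.8 (65.5 to 82.7), above Spry1 at 54.7 (45.0 to 59.3). The order depends on the gene model, because with the longest transcript as the length the controls also separated, with Spred3 at 195 and Spry2 at 154 and with Spry1 at 64.0 and Spry4 at 45.1. With that length Spry1 (60.5 to 79.8) and Spry4 (72.2 to 91.3) overlapped in the mutants, so their order there rests on the merged exons.

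**Figure D4:**
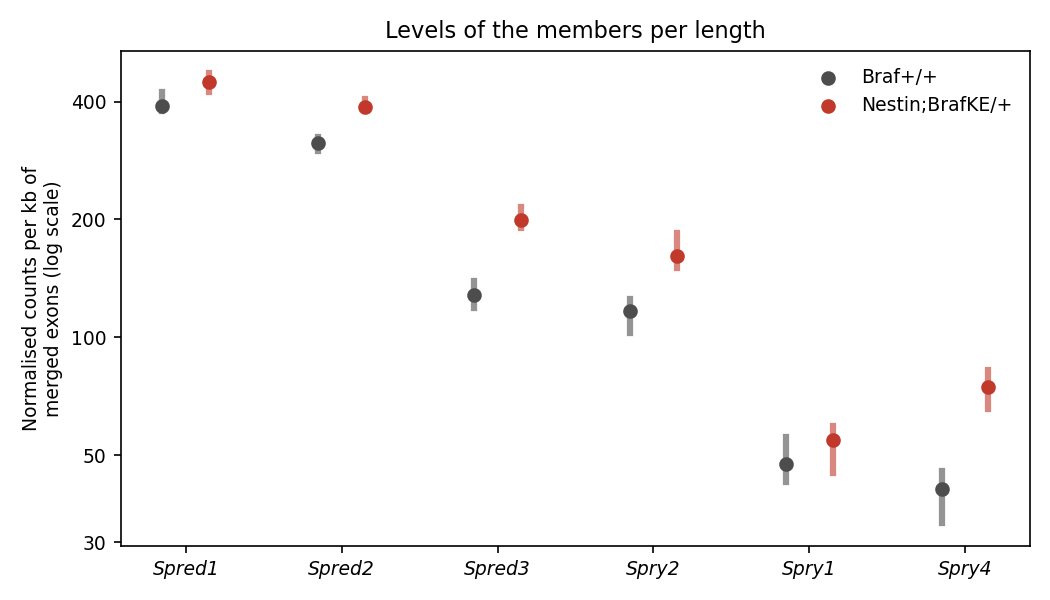
Level of each member in normalised counts per kilobase of merged exons (log scale), with points for the mean and bars from the lowest to the highest library, Braf+/+ in grey and Nestin;BrafKE/+ in red. Spred1 and Spred2 stand above the rest in both genotypes, and Spry4 overlaps Spry1 in controls and lies above it in mutants on this length.

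Summed over the 6 members, the level per kilobase was 1036 ± 42.3 (SD, n = 5) in Braf+/+ and 1326 ± 54.4 (SD, n = 4) in Nestin;BrafKE/+, with no overlap between the genotypes. The shares of Spry4 and Spred3 in this sum were higher in every mutant library than in any control. Spry4 made up 3.95% ± 0.37 of the sum in controls and 5.64% ± 0.43 in mutants, and 19.9% ± 1.54 against 25.7% ± 1.41 of the Sprouty part alone. Spred3 made up 12.4% ± 0.56 in controls and 15.1% ± 0.47 in mutants. The share of Spred1, whose own level did not pass the test, was 37.6% ± 0.35 in controls and 33.8% ± 0.44 in mutants, with no overlap. The Spred family held 80.2% ± 1.08 of the sum in controls and 78.0% ± 1.26 in mutants, and here the libraries overlapped, from 79.1 to 81.5% and from 76.3 to 79.2%. Shares of a sum are not independent of each other, since a rise of one lowers the others.

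The sequence before the transcription start is shown for 3 of the members that passed the test, so that letters bound by factors downstream of ERK can be seen in place. For each, the 250 bases before the start of the Ensembl canonical transcript in Gencode vM39 were read from GRCm39 on the strand of the gene, 5′ to 3′, so that the last base stands next to the start. They are Spry2 on chr14:106134793-106135042 (minus strand), Spred2 on chr11:19874105-19874354 (plus strand) and Spred3 on chr7:28868073-28868322 (minus strand). The stretches of Spry2 and Spred3 lie inside the span of the gene, since other transcripts start farther upstream, and none of the 3 overlaps an exon of its gene. The motifs searched on both strands were CCGGAA and the shorter GGAAG as cores bound by ETS factors, TGACG as the core of a cAMP response element, and TGANTCA as an AP-1 site. Capitals mark a match, written CTTCC where GGAAG lies on the other strand.
Spry2: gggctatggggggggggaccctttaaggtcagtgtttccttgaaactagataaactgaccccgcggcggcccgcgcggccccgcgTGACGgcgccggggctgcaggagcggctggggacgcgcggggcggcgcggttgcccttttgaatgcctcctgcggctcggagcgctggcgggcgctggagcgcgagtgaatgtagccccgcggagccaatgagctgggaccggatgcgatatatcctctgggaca
Spred2: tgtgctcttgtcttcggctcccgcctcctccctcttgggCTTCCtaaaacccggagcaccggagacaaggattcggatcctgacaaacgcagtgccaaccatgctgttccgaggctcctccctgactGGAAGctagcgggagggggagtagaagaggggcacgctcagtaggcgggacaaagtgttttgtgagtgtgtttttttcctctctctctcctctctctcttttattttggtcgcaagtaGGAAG
Spred3: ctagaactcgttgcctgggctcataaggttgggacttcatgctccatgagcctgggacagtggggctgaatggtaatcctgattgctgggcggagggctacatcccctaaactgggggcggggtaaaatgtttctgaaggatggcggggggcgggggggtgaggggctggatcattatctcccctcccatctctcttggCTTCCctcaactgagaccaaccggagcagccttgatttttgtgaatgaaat

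The Spry2 stretch holds TGACG from -165 to -161, counted from -1 at the last base. That of Spred2 holds GGAAG at -123 to -119 and at -5 to -1, and on the other strand at -211 to -207. That of Spred3 holds it on the other strand at -51 to -47. CCGGAA and TGANTCA were not found in these 3 stretches. GGAAG occurs in 63.8% of the 21757 promoters of the same length and TGACG in 18.0%, while CCGGAA occurs in 12.4% and TGANTCA in 6.18%. Of the members that did not pass, none of the 4 motifs was found before Spry1, and the stretch before Spred1, of which 16 bases lie in an exon of the gene, holds GGAAG at -250 to -246. The stretch before Spry4 was not analysed here. A match is a run of letters and no evidence of binding.

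Other genes of the pathway were taken from 5 lists, each given by its counts and its median. In the main limma fit 2991 of all 16196 genes tested had an unadjusted p under 0.05, which is the share to set beside such counts. Of 25 partners and regulators of Sprouty and Spred proteins, 0 passed in limma and 5 had an unadjusted p under 0.05, and their median log2 fold change was -0.02. Among them Nf1, the effector of Spred proteins, had 1772 ± 77.1 (SD, n = 4) normalised counts in mutants and 1686 ± 60.2 (SD, n = 5) in controls. Cbl, the ligase bound by Spry2, had 1488 ± 106 in mutants and 1679 ± 143 in controls.

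Of the 14 other feedback inhibitors of ERK tested, 3 passed, all upward, and the median was 0.10. These were Dusp6, Dusp4 and Dusp5, phosphatases that remove the activating phosphates from ERK or related kinases. Dusp6, which binds and inactivates ERK, had 1952, 1915, 2108 and 2024 normalised counts in Nestin;BrafKE/+ replicates 1 to 4 and 969, 936, 1148, 996 and 994 in Braf+/+ replicates 1 to 5. Its log2 fold change of 0.99 (SE 0.07, adjusted p = 0.000325) had the lowest p of all genes tested. Dusp4 followed at 0.95 (adjusted p = 0.00106), near the value of Spry4, and Dusp5 at 0.49 (adjusted p = 0.0172), near that of Spry2. Of the 14 genes tested, 10 had a log2 fold change above 0 and 4 had one below 0. Those below 0 did not pass. They included Il17rd, a membrane inhibitor of fibroblast growth factor receptors, at -0.23 (adjusted p = 0.322). Errfi1, an inhibitor of the epidermal growth factor receptor, was also among them, at -0.10 (adjusted p = 0.554). The rest of the list that did not pass lay above 0. The Sprouty and Spred genes had 4 of 6 past the threshold where this list had 3 of 14.

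Of 20 output genes of ERK, 4 passed, and the median was 0.03. Ccnd1, which encodes cyclin D1, rose by 0.83 (adjusted p = 0.00177), Etv5, an ETS factor, by 0.58 (adjusted p = 0.00193), and Fos fell by 0.67 on the log2 scale (adjusted p = 0.0457). Upstream of RAS, 1 of 19 receptor tyrosine kinases passed, and the median was 0.04. This was Fgfr1, a receptor for fibroblast growth factors, which rose from 2645 ± 127 (SD, n = 5) to 3826 ± 197 (SD, n = 4) normalised counts (log2 fold change 0.53, adjusted p = 0.00226). Of 20 ligands, Fgf1 rose by 0.35 (adjusted p = 0.0243) and Ntf3, which encodes neurotrophin 3, fell by 1.82 on the log2 scale (adjusted p = 0.00261), and the median of the list was -0.07.

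**Figure D5:**
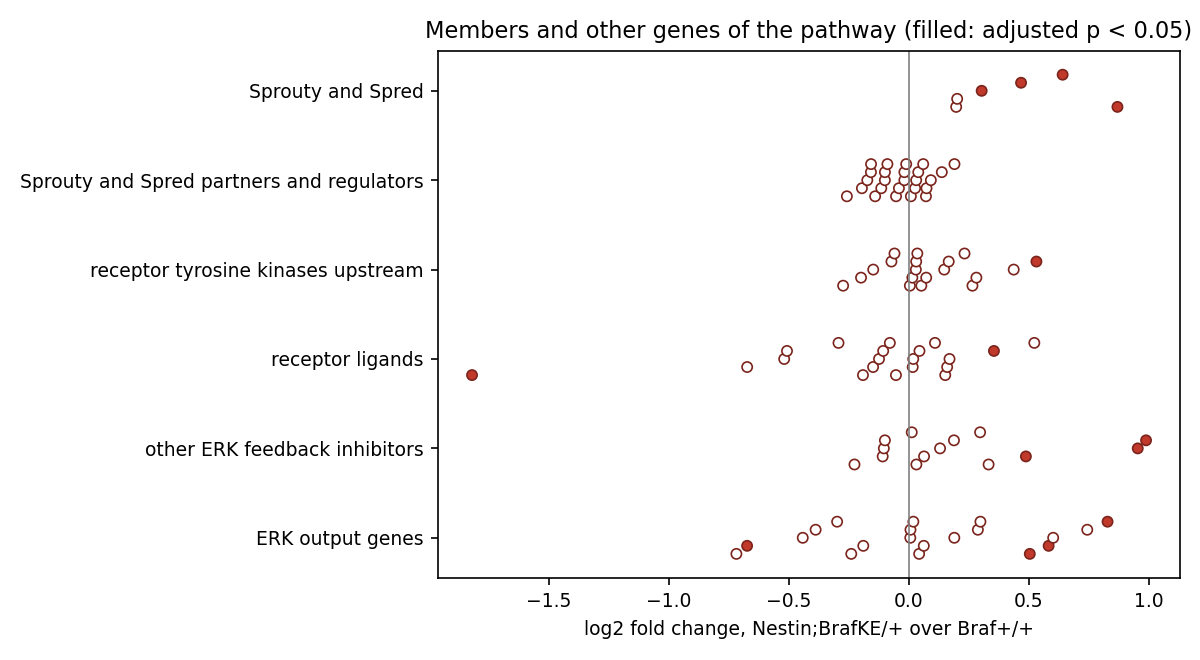
Log2 fold change in Nestin;BrafKE/+ over Braf+/+ of the Sprouty and Spred genes (top) and of the genes of 5 pathway lists, 1 circle per gene tested, filled where the adjusted p was under 0.05. All 6 members lie right of 0 with a median of 0.39, while the partners and regulators lie around 0 with a median of -0.02 and no filled circle.

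For each member that passed, the 3 genes with the most similar profile over the 9 libraries were found, by the root mean square (RMS) difference of log2 values after each gene's mean was removed, among 13225 genes with a mean of at least 50. For Spry4 these were Kcnip1, which encodes a protein that binds voltage-gated potassium channels, at an RMS difference of 0.12, then Dusp4 at 0.13 and Mtmr11 at 0.14, against a median of 0.47 over all candidates. For Spred3 they were Wfs1 at 0.060, Synj2 at 0.061 and Cspg4 at 0.067, against a median of 0.35. Wfs1 is a marker of excitatory neurons of hippocampal area CA1, and Cspg4 is a marker of oligodendrocyte precursors. For Spry2 they were Ccdc190 at 0.065, Cdc42ep1 at 0.070 and Prex2 at 0.072, against a median of 0.29. For Spred2 they were H2bc21 at 0.025, Zfp869 at 0.029 and Slc27a1 at 0.030, against a median of 0.19. The profile includes the genotype difference, so genes that changed by a like amount rank high by construction. Between members, the RMS difference of Spry4 and Spred3 was 0.19, that of Spred1 and Spred2 0.078 and that of Spry1 and Spred1 0.097.

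Marker levels of several cell types moved with the genotype in the same libraries. The level of a list in a library was its average log2 value, with each gene centred on its mean over the libraries. The astrocyte level ran from 0.10 to 0.17 in Nestin;BrafKE/+ and from -0.14 to -0.08 in Braf+/+, with 3 of 12 markers past the threshold, all upward. The oligodendrocyte level ran from 0.10 to 0.26 in mutants and from -0.33 to 0.03 in controls, with 4 of 10 past the threshold. Precursors of oligodendrocytes (1 of 8), excitatory neurons (2 of 8) and inhibitory neurons (1 of 8) also had levels in the mutants above those of all controls. Microglia (0 of 10 in limma, 3 at an unadjusted p under 0.05) and endothelium (1 of 9) overlapped between the genotypes. The level of choroid plexus, a tissue beside the hippocampus, ran from -2.73 to 0.19 in mutants and from -1.09 to 2.82 in controls, with 0 of 8 past the threshold in limma and 2 at an unadjusted p under 0.05. Meninges (1 of 8) and blood (0 of 5 in limma, 4 at an unadjusted p under 0.05) overlapped as well. Of all 16196 genes tested in limma, 2991 had an unadjusted p under 0.05.

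With the choroid plexus level as a covariate, 3 members passed, and Spry2 had a log2 fold change of 0.47 with an adjusted p of 0.0604. With the oligodendrocyte level as a covariate, 0 members passed in limma (Spry4, Spred1, Spred2 and Spred3 at an unadjusted p under 0.05), and 0 genes of all those tested did, where 1050 had an unadjusted p under 0.05. Log2 fold changes in that fit were 0.83 for Spred3, 0.63 for Spry4, 0.38 for Spred2, 0.26 for Spred1, 0.49 for Spry1 and 0.24 for Spry2. With the astrocyte level as a covariate, which nearly coincides with the genotype, 0 members and 0 genes passed, with Spry1, Spred1, Spred2 and Spred3 among 631 genes at an unadjusted p under 0.05, and the standard error for Spry4 rose from 0.12 to 0.60. The log2 fold changes were then 1.29 for Spred3, 0.79 for Spry4, 0.58 for Spred2, 0.65 for Spred1, 1.37 for Spry1 and 0.38 for Spry2. In these bulk libraries the genotype and the glial marker levels cannot be told apart, and neither can more cells of a type and more RNA per cell.

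Some reads may belong to overlapping genes. In Gencode vM39 the microRNA gene Mir674 lies within Spred1 and the predicted gene Gm72089 overlaps Spred2 on the same strand, and Ggn overlaps Spred3, Gm42922 Spry1 and predicted genes overlap Spry2 and Spry4 on the opposite strand. The authors quantified with an earlier Gencode release, in which these overlaps may differ. The library kit keeps the strand, and whether the quantification used it is not given in the sources used here. The values of these members cannot be divided further, and each stands for all transcripts of its gene.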

How the data were processed

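RNA from dissected hippocampus of 4 Nestin;BrafKE/+ and 5 Braf+/+ mice was sequenced from TruSeq stranded mRNA libraries, 1 per animal. Per the study's methods and the submitters' processing notes, the authors trimmed reads with Trim Galore, mapped them to GRCm39 by STAR, used Salmon for quantification, corrected for unnamed batches and normalised as for DESeq2. What was deposited is a signal, in normalised counts per gene and library. Within each library 100% of values were whole multiples of a common step (tolerance 0.01), but the multiple for mt-Co1 was 491938 in all 9 libraries, so they are output of the batch adjustment and not reads, the depth is unknown and no count model was used.

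Groups came from the labels, and all 9 libraries were used. The test, on genes whose mean reached 10, was limma 3.58.1 in R 4.3.3 (lmFit, eBayes with trend) on log2(value + 1), with genotype and series of library names as terms, two-sided, with Benjamini-Hochberg adjustment over 16196 genes and a threshold of 0.05. A fold change on this scale understates that of low genes. P-values measure the spread between these animals that was left after the authors' batch adjustment. They treat the libraries as independent. The 2 libraries of series C were not, since deviations from their group means correlated at -0.997 across genes. Single values were tested by two-sided exact permutation. Intervals of log2 ratios between members came from a linear model with genotype and series. The main limma fit was tested on simulated data with independent noise and no series effect. Gene positions, exon lengths and promoters came from GRCm39 and Gencode vM39 through the gene IDs and symbols of the table. Figures were drawn with matplotlib 3.10.9 in Python 3.11.15.

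The members and lists were chosen with earlier results of these data known. Another pathway list is not reported here. Named genes were the members, Braf, Dusp6, at most 3 genes per pathway list past the threshold with the largest absolute log2 fold change, and the 3 genes nearest in profile to each member that passed, though Nf1, Cbl, Il17rd, Errfi1, Slc1a2 and Gad1 were named after their values were seen. Alternatives were pseudocounts of 0.5 and 8, a minimum mean of 50 or none, quantile normalisation, TMM factors, 4 name prefixes or no series term, a replicate block, robust eBayes, array quality weights, thresholds of 0.01 and 0.1, transcript length, and leaving out each library. Marker levels of astrocytes, oligodendrocytes and choroid plexus were added as covariates after seeing the data.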

Additional observations from a re-analysis of the deposited data

Results flagged for a closer look

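Of 16 groups of values screened (6 members, Braf and Dusp6 in each genotype), 2 had 1 library far from the others, where chance gives about 1 in 20. Spred1 in Braf+/+ had its gap between replicate 4, at 3286 normalised counts, and the next control take up 0.882 of the whole range, and the other 4 controls lay from 2935 to 2977. Dusp6 in Braf+/+ had replicate 3, at 1148 normalised counts, above the other 4 controls, which lay from 936 to 996, a gap of 0.716 of the range.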

How the results depend on the processing

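All 6 members kept a positive log2 fold change in each of these fits. Over the 9 fits with a library left out, it ran from 0.09 to 0.38 for Spry1, 0.30 to 0.54 for Spry2, 0.74 to 1.00 for Spry4, 0.13 to 0.30 for Spred1, 0.25 to 0.34 for Spred2 and 0.57 to 0.74 for Spred3, and members past the threshold from 1 (Spred3, without Nestin;BrafKE/+ replicate 1) to 4, and genes past it from 42 (without the same library) to 371, with 97 without Braf+/+ replicate 4, 169 without Nestin;BrafKE/+ replicate 3 and 278 without Braf+/+ replicate 1, against 466. Leaving out a library of series C removes that series from the contrast. An adjusted p threshold of 0.01 left 2 members and 94 genes, and 0.1 gave 927 genes. Without the series term 2260 genes passed, and Spred1 (0.20) did too, with an adjusted p of 0.0150. With 4 name prefixes 165 genes passed and with array quality weights 258, and Spry2 had log2 fold changes of 0.38 (adjusted p = 0.0579) and 0.48 (0.0519). The choroid plexus covariate left Spry2 short of the threshold, at 0.47 (adjusted p = 0.0604). The oligodendrocyte covariate left 0 members and 0 genes, with log2 fold changes of 0.24 for Spry2, 0.63 for Spry4, 0.38 for Spred2 and 0.83 for Spred3, and the astrocyte covariate also 0 and 0, with 0.38, 0.79, 0.58 and 1.29. In limma 4 members had an unadjusted p under 0.05 in each, Spred1, Spred2 and Spred3 in both, with Spry4 in the former and Spry1 in the latter. Exact permutation of Spred1 within series gave a difference of 0.20 with an exact p of 0.0833. Per length of the longest transcript, control levels moved to 64.0 for Spry1, 154 for Spry2, 475 for Spred1, 390.5 for Spred2 and 195 for Spred3. The cause of these changes was not tested. Other pseudocounts, filters, TMM factors, quantile normalisation and robust eBayes left the calls of the 6 members as they were.

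Same-numbered libraries deviated with correlations of -0.39, -0.08, 0.07 and 0.41 across genes. These values were batch-adjusted by the authors, so the correlations cannot decide whether the numbers pair the libraries. The main fit used no pairing by number. Between other-numbered libraries of the 2 genotypes the correlations ran from -0.997 to 0.63. The lowest was that of Nestin;BrafKE/+ replicate 4 and Braf+/+ replicate 5, which make up series C. The highest was that of Nestin;BrafKE/+ replicate 1 and Braf+/+ replicate 4. The cause of these links was not tested. With the numbers as a replicate block 1405 genes passed, and Spred1 (0.19, adjusted p = 0.0383) with the 4 other members. The depth is unknown and its limits cannot be given.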
